A study of Homo sapiens with 15 samples.

Results

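Glucose entry into glycolysis and its diversion from the mitochondrion were followed through 10 genes: the hexokinases HK1, HK2 and HKDC1, the glucose transporters SLC2A1 and SLC2A3, the bifunctional enzymes PFKFB2, PFKFB3 and PFKFB4, and the pyruvate dehydrogenase kinases PDK1 and PDK3. They were taken by gene symbol from the 16109 genes that 3 expression tables list between them. Each table lists 9 of the 10. HKDC1 is not listed in either P493-6 table and SLC2A3 is not listed in the PC3 table. The libraries came from 2 established human cell lines exposed for 24 h. PC3, a prostate cancer line, received 8 µM MYCi975 dissolved in DMSO, and its controls received DMSO. P493-6, which the labels call a Burkitt lymphoma line overexpressing c-MYC, received 6 µM MYCi975 dissolved in DMSO, or 0.1 µg/ml tetracycline dissolved in water, and its controls received DMSO. The tetracycline libraries therefore have no control with their own vehicle. MYCi975 is a compound designed against the transcription factor MYC, and in P493-6 tetracycline switches off an introduced MYC gene. Each of the 5 groups has 3 libraries, and the labels do not say whether these were grown apart, so the p-values rest on differences among libraries that may be technical repeats.

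Glucose enters cells through SLC2A transporters and is trapped by hexokinases, which phosphorylate it. PFKFB enzymes make and degrade the fructose bisphosphate that switches on phosphofructokinase, the main control point of glycolysis. PDK enzymes phosphorylate and switch off the pyruvate dehydrogenase complex, so that pyruvate goes to lactate rather than to the mitochondrion. MYC, bound with its partner MAX to E-box letters in DNA, and the hypoxia-inducible factors, bound to a related core, are both known as activators of genes of these families.

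Depth was 8162582 to 15926008 reads per library, and replicate libraries of a group correlated with r of 0.9938 to 0.9967 over 15 pairs. Markers followed the line labels with a few exceptions. Of the B cell markers, 6 of 6 were listed in P493-6 and 0 of 6 in PC3, and of the epithelial markers 5 of 5 were listed in PC3, while the prostate marker KLK3 was not listed there. In P493-6, 2 of 5 epithelial markers (0.579 to 13.8 CPM as group means) and 2 of 3 T and NK cell markers (0.552 to 7.80 CPM) were listed, and 1 of 3 fibroblast markers was listed in each line (2.03 to 7.71 CPM in P493-6, 55.4 to 64.8 CPM in PC3). EPCAM, an epithelial surface protein, averaged 13.8 CPM with MYCi975, 1.84 CPM with tetracycline and 11.2 CPM in controls of P493-6. Their part in the results was not tested. MYC itself had 359.4 to 385.9 CPM (reads per 1e+06 counted reads) in PC3 with MYCi975 and 300.4 to 309.3 CPM in PC3 controls. In P493-6 it had 5084 to 5138 CPM with MYCi975, 144.9 to 152.3 CPM with tetracycline and 4692 to 4791 CPM in controls. The MYC transcript was thus low in the tetracycline libraries and not low with MYCi975 in either line. A CPM is a share of the counted reads, so a change in RNA per cell or in the mix of cells cannot be told apart from it here.

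Promoter sequence is shown for the 4 genes that fell with tetracycline, HK2, PFKFB3, PFKFB4 and PDK1, because those libraries had the least MYC transcript. For each gene the window with the most matches to ACGTG or GCGTG, the core bound by hypoxia-inducible factors, is printed, from 250 bases before to 50 bases after a transcription start, as RefSeq gives it on GRCh38.p14. Capitals mark ACGTG or GCGTG on either strand, and the E-box CACGTG contains ACGTG on both strands.
HK2, chr2:74834920-74835219, plus strand: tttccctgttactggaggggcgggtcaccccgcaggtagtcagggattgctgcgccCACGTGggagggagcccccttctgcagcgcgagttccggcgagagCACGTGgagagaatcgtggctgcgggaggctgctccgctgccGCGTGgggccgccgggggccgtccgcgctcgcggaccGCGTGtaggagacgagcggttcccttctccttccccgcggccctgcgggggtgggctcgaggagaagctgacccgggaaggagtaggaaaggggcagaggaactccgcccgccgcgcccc
PFKFB3, chr10:6202682-6202981, plus strand: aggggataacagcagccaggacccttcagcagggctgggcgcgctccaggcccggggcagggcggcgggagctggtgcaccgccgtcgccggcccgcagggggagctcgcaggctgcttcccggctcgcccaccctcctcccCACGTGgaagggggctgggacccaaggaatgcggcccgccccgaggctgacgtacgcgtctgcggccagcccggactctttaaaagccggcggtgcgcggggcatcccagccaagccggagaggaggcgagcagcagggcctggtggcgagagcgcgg
PFKFB4, chr3:48556754-48557053, minus strand: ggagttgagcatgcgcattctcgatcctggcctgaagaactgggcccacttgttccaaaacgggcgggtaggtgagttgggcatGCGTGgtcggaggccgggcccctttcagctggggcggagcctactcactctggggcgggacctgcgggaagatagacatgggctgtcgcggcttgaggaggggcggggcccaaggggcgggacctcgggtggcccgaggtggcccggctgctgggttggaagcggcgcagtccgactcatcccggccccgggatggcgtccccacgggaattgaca
PDK1, chr2:172555840-172556139, plus strand: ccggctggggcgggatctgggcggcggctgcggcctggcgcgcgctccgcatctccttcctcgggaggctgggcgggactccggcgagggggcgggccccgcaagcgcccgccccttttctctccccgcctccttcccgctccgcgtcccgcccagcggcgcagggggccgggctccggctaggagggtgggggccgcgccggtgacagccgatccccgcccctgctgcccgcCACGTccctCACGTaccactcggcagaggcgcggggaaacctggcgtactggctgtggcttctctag
The printed HK2 window held CACGTG 2 times and that of PFKFB3 held it 1 time, while those of PFKFB4 and PDK1 held 0. HK2, PFKFB3 and PDK1 have 2 windows each. Their windows not printed held CACGTG 0 times, and ACGTG or GCGTG 3 times for HK2, 1 time for PFKFB3 and 0 times for PDK1. RefSeq windows were matched for 8 of the 10 genes, 17 windows in all, and not for PFKFB2 or SLC2A3. CACGTG was in 2 of these 17 windows, against 7.26% of all 35116 windows, and ACGTG or GCGTG was in 11 of 17, against 48.4%. All 8 matched genes had ACGTG or GCGTG in a window. These include HK1, SLC2A1 and PDK3, which did not fall with tetracycline, and HKDC1, not listed there. CCAAT was in 7 of 17, against 34.6% of all windows, and GGGCGG was in 11 of 17, against 45.0%. The letters TGATGCAA, a form bound by ATF4, were in 2 overlapping windows of HK1, against 0.866% of all windows, and TGATGAAA was in 0 of 17, against 1.11%. These are matches of letters on either strand, and binding was not measured.

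In PC3 with MYCi975 all 3 hexokinases, PFKFB2 and PFKFB3 rose, and SLC2A1, PDK1 and PDK3 fell. Thus 5 of the 9 listed genes were higher and 3 were lower at an adjusted p below 0.05 (limma on log2(CPM + 1), Benjamini-Hochberg over the table), while 29.0% of all 13751 genes were higher and 30.1% were lower. The 8 called of 9 stand beside 59.2% of all genes called. The libraries of both groups did not overlap for 8 of the 9, against 61.9% of all genes. The median log2 difference of the 9 was 0.34, against -0.00 for all genes, and the median absolute difference was 0.35, against 0.24. Where no other pseudocount, scaling, test or source is named, differences given below are on this log2(CPM + 1) scale, the 1 being the pseudocount. On this scale the change of genes with low CPM is understated.

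HKDC1 (hg38 chr10:69220303-69267559, plus strand), a hexokinase-like gene that ends 2424 bases before HK1 starts, moved most. It had 17.2, 17.1 and 17.7 CPM in PC3 with MYCi975, against 2.07, 1.88 and 1.14 CPM in PC3 controls. Every treated library lay far above every control library, and the ratio of the group means was 10.2. The log2 difference was 2.78 (SE 0.132, limma adjusted p = 5.35e-35), which ranked 8 among 13751 genes by size. The lowest control library held 15 reads of it, and the log2 difference was 1.74 with a pseudocount of 5 CPM and 3.33 by edgeR's quasi-likelihood test on the recovered reads.

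HK1 (hg38 chr10:69269984-69401882, plus strand), the hexokinase found in nearly all tissues, had 659.8, 643.6 and 641.6 CPM in PC3 with MYCi975, against 376.9, 379.0 and 377.8 CPM in PC3 controls. The groups were wide apart, with a log2 difference of 0.78 (SE 0.029, limma adjusted p = 6.89e-43). HK2 (hg38 chr2:74833981-74893359, plus strand), the inducible hexokinase of muscle and of many tumours, rose less in PC3. It had 156.6, 157.5 and 164.5 CPM with MYCi975, against 124.1, 129.2 and 123.0 CPM in controls, a log2 difference of 0.34 (SE 0.039, limma adjusted p = 5.71e-13). All 3 treated libraries were above all 3 controls.

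In P493-6 HK2 moved in opposite directions under the agents and HK1 did not. HK2 had 186.0, 184.6 and 201.7 CPM with MYCi975, 35.0, 36.9 and 40.3 CPM with tetracycline and 177.9, 164.9 and 157.9 CPM in controls. The MYCi975 libraries were just above the controls and the tetracycline libraries were far below both. HK2 rose with MYCi975 by 0.19 on the log2 scale (SE 0.048, limma adjusted p = 0.0016) and fell with tetracycline by 2.13 (SE 0.061, limma adjusted p = 4.81e-29), to a mean 4.46-fold lower than in controls. Both agents were compared with the same 3 control libraries, here and below. HK1 stayed in a narrow range, with 115.7, 115.3 and 111.4 CPM with MYCi975, 116.6, 113.8 and 116.9 CPM with tetracycline and 106.7, 102.9 and 106.7 CPM in controls. It rose with tetracycline by 0.13 (SE 0.051, limma adjusted p = 0.0162), a call that was lost without control library 2 (0.12, limma adjusted p = 0.0731). The difference was larger with TMM scaling (0.21, limma adjusted p = 0.000211), with edgeR (0.22, adjusted p = 8.59e-05) and with DESeq2 (0.215, adjusted p = 0.000929), and it is 0.22 in the authors' deposited table. With MYCi975 its log2 difference was 0.11 (SE 0.049, limma adjusted p = 0.0794). That difference did not pass, although the libraries did not overlap, and it passed with TMM scaling (0.16, limma adjusted p = 0.0112), with edgeR (adjusted p = 0.00825) and with DESeq2 (adjusted p = 0.0404). In the authors' deposited table HK1 is marked higher with MYCi975 in P493-6, with a log2 fold change of 0.16.

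Per kilobase of coding sequence, HK1 had the higher level in PC3, and HK2 in P493-6 except with tetracycline. Reads per gene also depend on how well its exons are captured, and whether division by coding length makes different genes comparable in these libraries was not tested, here and for the levels of other genes given per kilobase. HK1 averaged 235 ± 3.63 CPM per coding kb in PC3 with MYCi975 and 137 ± 0.379 in PC3 controls (SD, n = 3 each, as in what follows). HK2 averaged 58.0 ± 1.58 in PC3 with MYCi975 and 45.6 ± 1.21 in PC3 controls. Of the summed hexokinase level, HK2 made up 19.4% ± 0.598 in PC3 with MYCi975 and 24.9% ± 0.440 in PC3 controls. HKDC1 made up 2.11% ± 0.0477 in PC3 with MYCi975 and 0.337% ± 0.0972 in PC3 controls. In P493-6 the HK2 share was 62.6% ± 1.63 with MYCi975, 24.5% ± 1.28 with tetracycline and 61.3% ± 1.44 in controls. The summed level was 299 ± 2.82 CPM per coding kb in PC3 with MYCi975 against 183 ± 1.60 in PC3 controls. In P493-6 it was 111 ± 2.61 with MYCi975, 55.5 ± 1.29 with tetracycline and 98.8 ± 3.90 in controls. PC3 and P493-6 values come from separately made tables, each library scaled to its own counted reads, and were set side by side without a test.

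**Figure D1:**
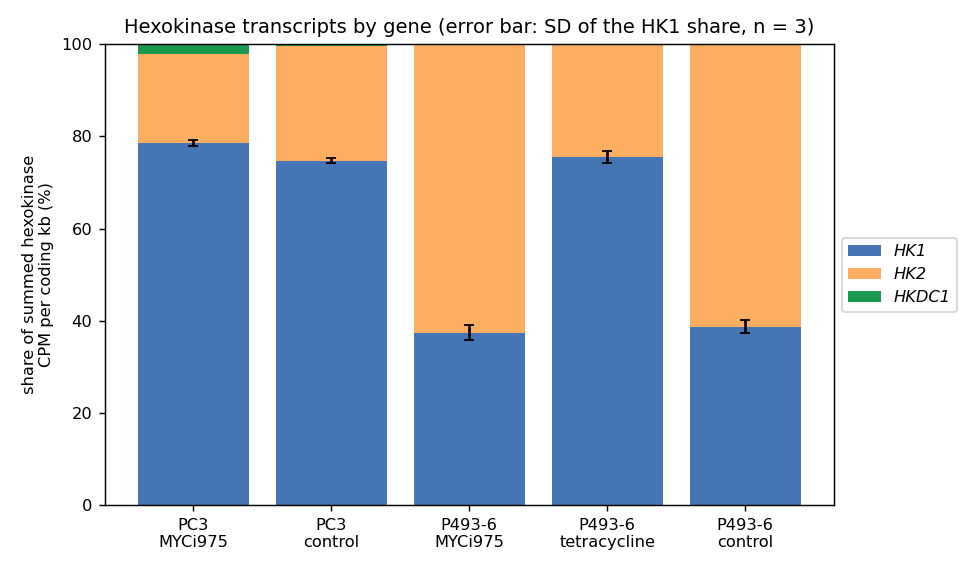
Share of the summed hexokinase level (CPM per coding kb, %) held by HK1, HK2 and HKDC1, as group means of 3 libraries; error bars are the SD of the HK1 share. HK2 held 62.6% with MYCi975, 24.5% with tetracycline and 61.3% in controls of P493-6.

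The transporter SLC2A1 (GLUT1; hg38 chr1:42925381-42958859, minus strand), the widely expressed basal glucose carrier, had 66.2, 60.3 and 66.1 CPM in PC3 with MYCi975, against 73.8, 73.7 and 78.8 CPM in PC3 controls. Each treated library was below each control, and SLC2A1 fell by 0.23 on the log2 scale (SE 0.050, limma adjusted p = 4.08e-05). In P493-6 it had 90.3, 77.5 and 86.1 CPM with MYCi975, 119.9, 123.1 and 123.9 CPM with tetracycline and 73.8, 77.8 and 72.9 CPM in controls. The tetracycline libraries stood clear of all others, while 1 MYCi975 library lay within the control range. SLC2A1 rose with tetracycline by 0.70 (SE 0.054, limma adjusted p = 4.28e-15). With MYCi975 it rose by 0.17 (SE 0.057, limma adjusted p = 0.0187), but the call was lost without MYCi975 library 1 (0.12, limma adjusted p = 0.163), MYCi975 library 3 (0.16, limma adjusted p = 0.056) or control library 3 (0.15, limma adjusted p = 0.0757). With all libraries this difference was 0.22 with TMM scaling (limma adjusted p = 0.0026), with edgeR (adjusted p = 0.00187) and with DESeq2 (adjusted p = 0.0152).

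SLC2A3 (GLUT3; hg38 chr12:7919230-7936275, minus strand), a high-affinity glucose carrier known from neurons and white blood cells, had 9.92, 10.2 and 12.3 CPM in P493-6 with MYCi975, 56.9, 60.3 and 52.0 CPM with tetracycline and 6.49, 5.57 and 3.58 CPM in controls. The 3 groups did not overlap. SLC2A3 rose with tetracycline by 3.24 (SE 0.130, limma adjusted p = 6.9e-19), to a mean 10.8-fold that of the controls, and with MYCi975 by 0.95 (SE 0.148, limma adjusted p = 2.36e-06). With a pseudocount of 5 CPM the MYCi975 difference was 0.64. Its near-identical paralog SLC2A14 is not listed in any table, and reads shared with it make the SLC2A3 level uncertain.

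PFKFB2 (hg38 chr1:207034366-207081024, plus strand), known as the heart form and as a target of insulin signalling, had 136.2, 133.1 and 133.2 CPM in PC3 with MYCi975, against 82.1, 77.5 and 78.9 CPM in PC3 controls. The groups were wide apart, and PFKFB2 rose by 0.75 (SE 0.043, limma adjusted p = 2.39e-29). It was scarce in P493-6, with 3.51, 4.15 and 3.39 CPM with MYCi975, 11.0, 9.43 and 13.8 CPM with tetracycline and 3.30, 3.52 and 2.86 CPM in controls. The tetracycline libraries were above all others, and the MYCi975 and control libraries overlapped. PFKFB2 rose with tetracycline by 1.54 (SE 0.155, limma adjusted p = 1.07e-11), and its difference with MYCi975 was 0.15 (SE 0.167, 95% interval -0.19 to 0.48, limma adjusted p = 0.555). The gene overlaps YOD1 on the opposite strand, and the strand setting of the counting is not given in the sources used here. With a pseudocount of 5 CPM the tetracycline difference was 0.99.

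PFKFB3 (hg38 chr10:6144934-6235545, plus strand), the form with the highest kinase activity relative to its phosphatase, had 51.2, 52.4 and 57.3 CPM in PC3 with MYCi975, against 41.2, 39.6 and 44.9 CPM in PC3 controls. The groups did not overlap, and PFKFB3 rose by 0.35 (SE 0.058, limma adjusted p = 1.77e-07). In P493-6 it had 71.3, 64.6 and 72.6 CPM with MYCi975, 39.5, 42.9 and 41.6 CPM with tetracycline and 60.1, 58.1 and 54.0 CPM in controls. The controls lay between the agents with no overlap. PFKFB3 rose with MYCi975 by 0.27 (SE 0.061, limma adjusted p = 0.00051) and fell with tetracycline by 0.46 (SE 0.069, limma adjusted p = 1.3e-07). Its printed window, the one with CACGTG, belongs to 1 of its 2 RefSeq starts.

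PFKFB4 (hg38 chr3:48517684-48562015, minus strand), first known as the testis form, had 15.2, 14.3 and 13.6 CPM in PC3 with MYCi975, against 13.9, 16.3 and 13.9 CPM in PC3 controls. These libraries overlapped, and the log2 difference was -0.03 (SE 0.093, 95% interval -0.22 to 0.15, limma adjusted p = 0.802). In P493-6 it had 36.6, 34.5 and 38.7 CPM with MYCi975, 6.31, 7.72 and 5.66 CPM with tetracycline and 17.9, 20.4 and 14.6 CPM in controls. The controls again lay between the agents with no overlap. PFKFB4 rose with MYCi975 by 1.02 (SE 0.092, limma adjusted p = 7.52e-12), a mean 2.08-fold that of the controls and rank 26 among 12998 genes by size. It fell with tetracycline by 1.30 (SE 0.133, limma adjusted p = 1.99e-11), to a mean 2.69-fold lower than in controls. The gene overlaps UCN2, on the same strand and not listed in any table.

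PDK1 (hg38 chr2:172555373-172608669, plus strand), the pyruvate dehydrogenase kinase best known as a target of hypoxia-inducible factors, had 19.0, 23.5 and 19.4 CPM in PC3 with MYCi975, against 27.6, 26.7 and 25.4 CPM in PC3 controls. Every treated library was below every control, and PDK1 fell by 0.35 (SE 0.078, limma adjusted p = 5.15e-05). In P493-6 it had 64.2, 65.8 and 73.6 CPM with MYCi975, 17.2, 19.0 and 17.7 CPM with tetracycline and 38.6, 36.6 and 34.6 CPM in controls. The MYCi975 libraries were highest, the controls next and the tetracycline libraries lowest, with no overlap. PDK1 rose with MYCi975 by 0.87 (SE 0.066, limma adjusted p = 3.31e-14), rank 51 of 12998 by size, and fell with tetracycline by 0.99 (SE 0.088, limma adjusted p = 3.6e-13).

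PDK3 (hg38 chrX:24465221-24539837, plus strand), a further kinase of the same complex, encoded on chromosome X, had 7.88, 7.86 and 7.14 CPM in PC3 with MYCi975, against 12.1, 10.1 and 9.56 CPM in PC3 controls. All treated libraries were below all controls, and PDK3 fell by 0.42 (SE 0.113, limma adjusted p = 0.000832). In P493-6 it had 16.9, 14.5 and 19.6 CPM with MYCi975, 15.6, 15.6 and 15.5 CPM with tetracycline and 14.8, 16.5 and 14.5 CPM in controls. The 3 groups overlapped. The log2 difference was 0.14 with MYCi975 (95% interval -0.07 to 0.35, limma adjusted p = 0.35; 0.04 without MYCi975 library 3 and 0.24 without MYCi975 library 2) and 0.03 with tetracycline (95% interval -0.19 to 0.24, limma adjusted p = 0.832).

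**Figure D2:**
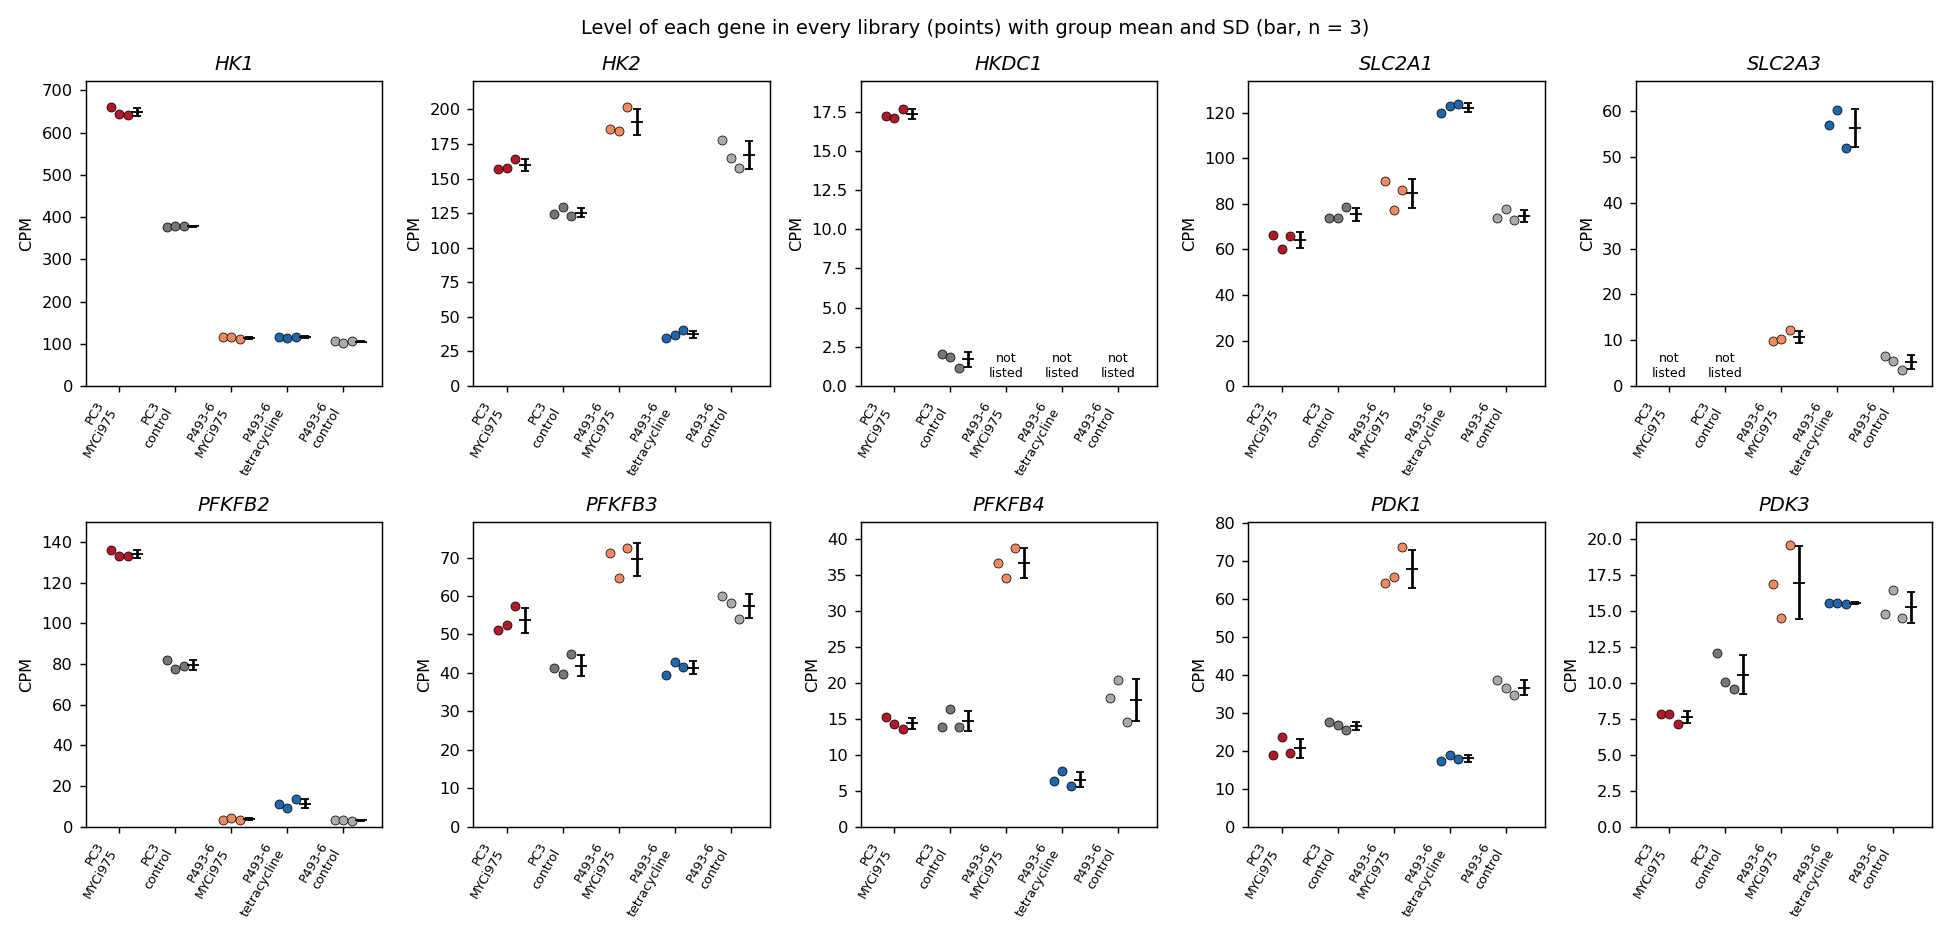
Level (CPM, linear axis from 0) of each gene in every library, by group; points are libraries and the bar beside them is the group mean with its SD (n = 3). HKDC1 lies at 17.1 to 17.7 CPM in PC3 with MYCi975 and at 1.14 to 2.07 CPM in PC3 controls; for HK2 and PFKFB4 in P493-6 the MYCi975 libraries are highest and the tetracycline libraries lowest.

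Counted over the list in P493-6, 6 of 9 listed genes were higher with MYCi975 and 0 were lower, while 10.6% of all 12998 genes were higher, 18.0% were lower and 28.6% were called in either direction. The count of lower genes was also 0 at an unadjusted limma p below 0.05, by edgeR and by DESeq2. The calls over all genes lean on the scaling, since 37.03% of them were higher with CPM alone and 51.84% with TMM factors added. Libraries did not overlap for 6 of the 9 genes, against 40.0% of all genes. The median log2 difference of the 9 was 0.19, against -0.04 for all genes. With tetracycline 4 of 9 were higher and 4 were lower, while 36.2% of all 13703 genes were higher and 41.9% were lower, so that 8 of 9 called stands beside 78.1% of all genes. Libraries did not overlap for 8 of the 9 genes with tetracycline, against 78.4% of all genes. The median absolute difference of the 9 was 0.99 with tetracycline, against 0.62 for all genes.

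**Figure D3:**
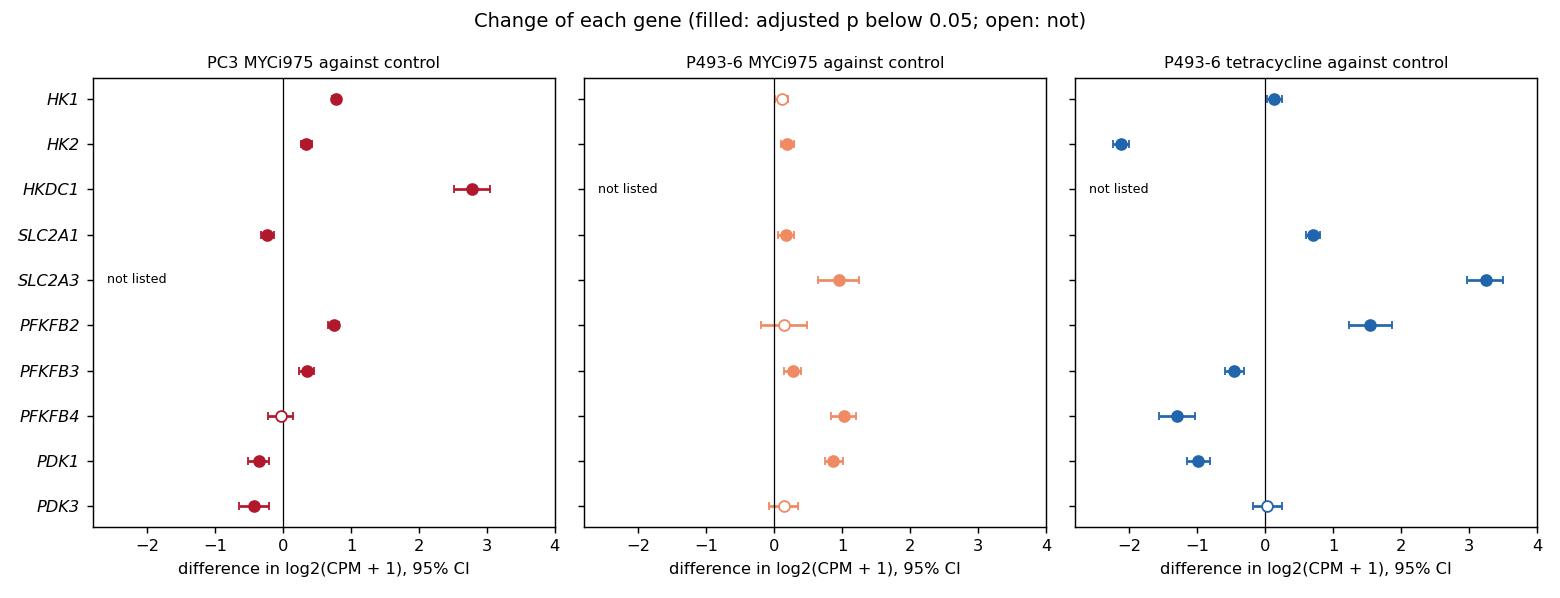
Difference in log2(CPM + 1) of each gene with its 95% confidence interval, for MYCi975 in PC3, then MYCi975 and tetracycline in P493-6, always against controls of the same line. Filled points passed an adjusted p below 0.05; HK2 lies at -2.13 and SLC2A3 at 3.24 with tetracycline.

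Setting MYCi975 in DMSO directly against tetracycline in water in P493-6 asks whether the agents, with their vehicles, left these genes at the same level. They did not for 7 of 9 genes, 4 higher and 3 lower with MYCi975 than with tetracycline, while 42.3% of all 12860 genes were higher, 33.9% were lower and 76.2% were called in either direction. Libraries of the agents did not overlap for 7 of the 9, against 76.9% of all genes. PFKFB4 differed by 2.32 (SE 0.112, limma adjusted p = 4.64e-24), with a mean 5.58-fold higher with MYCi975. HK2 differed by 2.32 (SE 0.056, limma adjusted p = 4.1e-37), with a mean 5.1-fold higher with MYCi975. PDK1 differed by 1.86 (limma adjusted p = 3.38e-27) and PFKFB3 by 0.74 (limma adjusted p = 2.14e-14). In the other direction SLC2A3 differed by -2.29 (limma adjusted p = 8.37e-18), PFKFB2 by -1.40 (limma adjusted p = 3.65e-11; -0.91 with a pseudocount of 5 CPM) and SLC2A1 by -0.53 (limma adjusted p = 5.05e-12). HK1 differed by -0.02 (95% interval -0.12 to 0.08, limma adjusted p = 0.716), and by -0.12 with TMM scaling (limma adjusted p = 0.0207) and by edgeR (adjusted p = 0.018), which passed the threshold, and by -0.12 with DESeq2, which did not (adjusted p = 0.0553). PDK3 differed by 0.11 (95% interval -0.10 to 0.33, limma adjusted p = 0.342). The median absolute difference was 1.40 for the 9 genes and 0.55 for all genes.

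The response to MYCi975 was also compared between the lines, as the PC3 change minus the P493-6 change, over the 8 genes listed for both. The doses differ, 8 µM in PC3 and 6 µM in P493-6, and cannot be told apart from the lines. Of the 8 genes, 2 had the higher change in PC3 and 4 the lower, while 18.1% of all 11240 genes had the higher, 18.2% the lower and 36.3% either there. HK1 differed by 0.66 (SE 0.051, limma adjusted p = 1.01e-13) and PFKFB2 by 0.60 (SE 0.122, limma adjusted p = 0.000129). PDK1 differed by -1.22 (SE 0.107, limma adjusted p = 4.22e-12), having fallen in PC3 and risen in P493-6. PFKFB4 differed by -1.05 (SE 0.138, limma adjusted p = 6.93e-08), PDK3 by -0.56 (limma adjusted p = 0.00493) and SLC2A1 by -0.40 (limma adjusted p = 8.39e-05). HK2 differed by 0.15 (95% interval 0.02 to 0.28, limma adjusted p = 0.0555), and this passed without PC3 control library 2 (0.17, limma adjusted p = 0.0457), P493-6 control library 3 (0.19, limma adjusted p = 0.0188) or P493-6 MYCi975 library 3 (0.19, limma adjusted p = 0.0147). PFKFB3 differed by 0.08 (95% interval -0.10 to 0.25, limma adjusted p = 0.538).

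**Figure D4:**
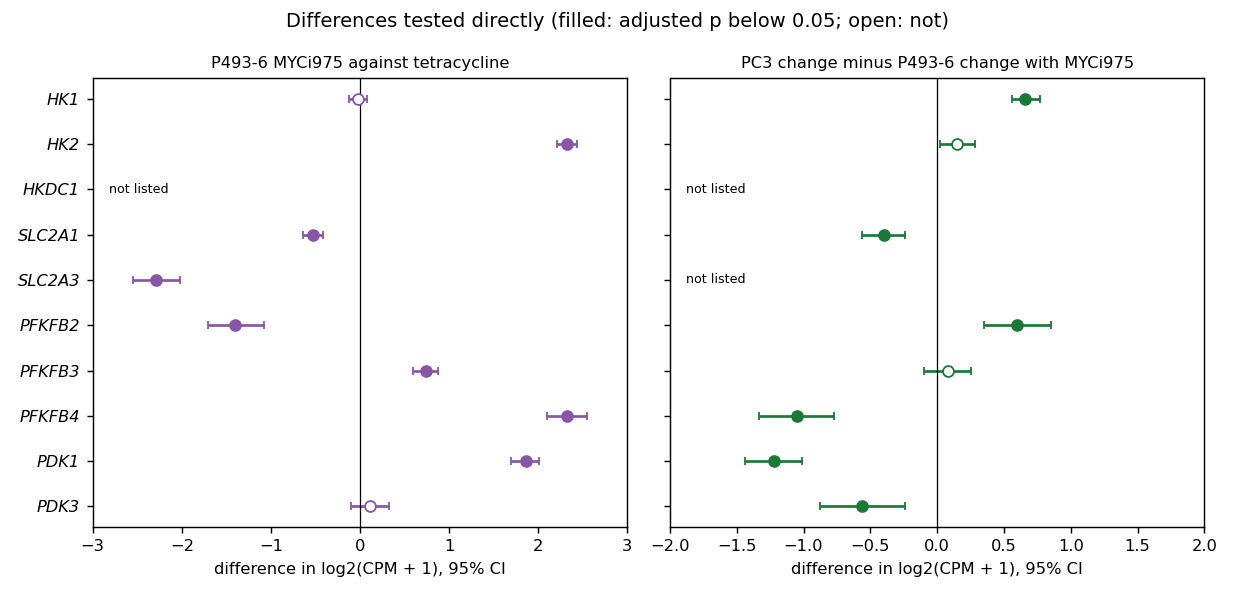
Difference in log2(CPM + 1) with its 95% confidence interval, on the left for P493-6 with MYCi975 against tetracycline and on the right for the PC3 change minus the P493-6 change with MYCi975. Filled points passed an adjusted p below 0.05; HK2 and PFKFB4 lie at 2.32 on the left, and PDK1 lies at -1.22 on the right.

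The order of the levels over the 5 groups differed between the genes. HK1 ran from 648.3 CPM in PC3 with MYCi975 and 377.9 CPM in PC3 controls to 115.8 CPM with tetracycline, 114.1 CPM with MYCi975 and 105.5 CPM in controls of P493-6, and there the tetracycline and MYCi975 libraries overlapped. PDK1 was highest in P493-6 with MYCi975 and lowest in P493-6 with tetracycline. Neighbouring groups among its 5 did not overlap, but the lowest of them nearly met. The lowest PC3 library with MYCi975 had 19.01 CPM and the highest P493-6 library with tetracycline had 18.99 CPM. The order of these groups is thus not resolved. For HK2 and for PFKFB3 the P493-6 controls overlapped the PC3 libraries with MYCi975. For SLC2A1 the P493-6 libraries with MYCi975 overlapped the PC3 controls, and the PC3 controls overlapped the P493-6 controls. Between genes, PFKFB2 had 88.6 ± 1.17 CPM per coding kb in PC3 with MYCi975 and 52.5 ± 1.57 in PC3 controls, the highest of the 3 PFKFB genes there. In P493-6 PFKFB3 was the highest of them, with 40.8 ± 2.50 CPM per coding kb with MYCi975, 24.3 ± 1.01 with tetracycline and 33.7 ± 1.82 in controls (SD, n = 3 each). Of the kinases, PDK1 had 49.6 ± 3.68 and PDK3 13.7 ± 2.03 CPM per coding kb in P493-6 with MYCi975, whereas with tetracycline PDK1 had 13.1 ± 0.671 and PDK3 12.5 ± 0.0603.

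Likeness of pattern was measured as the root mean square difference of the 3 log2 differences, over 11077 genes listed in all tables, and says nothing of shared function. The genes nearest to HK2 were SH3PXD2B (0.02) and PLA2G12A (0.06), and those nearest to HK1 were UNC13D (0.04) and ZNF70 (0.05). ALDH1L2, a mitochondrial folate enzyme, was the nearest to PFKFB4 (0.07) and the next nearest to PDK1 (0.21). ALDH1L2 changed by -0.07 in PC3 with MYCi975, 0.94 in P493-6 with MYCi975 and -1.21 with tetracycline on the log2 scale. BNIP3, a mitophagy receptor, was the next nearest to PFKFB4 (0.27) and TMEM145 the nearest to PDK1 (0.15). PFKFB2 lay nearest to NPC2 (0.05) and PIP4K2A (0.06), PFKFB3 to TRIM46 (0.03) and PABPC3 (0.03), SLC2A1 to ZKSCAN4 (0.04) and GPATCH2L (0.04), and PDK3 to PHLDA2 (0.03) and MGAT5 (0.03).

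The other members of these families, with the pyruvate dehydrogenase subunits, their phosphatases and the mitochondrial pyruvate carrier, were counted as a list of 28 genes. In PC3 with MYCi975 2 of the 19 listed were higher and 6 lower, where 29.0% of all genes were higher and 30.1% lower. PDP1, the phosphatase that reverses the action of PDK enzymes, rose by 1.42 (limma adjusted p = 1.21e-51), to 200.9 ± 8.66 CPM with MYCi975 against 74.4 ± 1.99 CPM in controls. There DLAT, a subunit of the pyruvate dehydrogenase complex, changed by -0.41, ADPGK, an ADP-dependent glucokinase, by -0.41 and MPC1, of the pyruvate carrier, by 0.37. In P493-6 with MYCi975 1 of the 20 listed was higher and 10 were lower, where 10.6% of all genes were higher and 18.0% lower. The named ones changed by -0.46 (SLC2A8), -0.33 (PDP2, a phosphatase), -0.29 (SLC2A6) and 0.30 (SLC2A13). In P493-6 with tetracycline 4 of 20 were higher and 13 lower, where 36.2% of all genes were higher and 41.9% lower. PDHA1, the subunit that PDK enzymes phosphorylate, had 52.3 ± 1.19 CPM with tetracycline against 175.5 ± 5.13 CPM in controls, and DLAT had 39.6 ± 0.937 CPM with tetracycline against 172.8 ± 5.76 CPM in controls (SD, n = 3 each). SLC2A4, the insulin-regulated carrier, fell with tetracycline by 2.53 (limma adjusted p = 2.89e-15), to 0.288 ± 0.199 CPM against 6.40 ± 0.893 CPM in controls, and PDP2 changed by -2.19. PDP1 rose with tetracycline too, by 0.96 (limma adjusted p = 8.31e-13), and differed by -0.04 in P493-6 with MYCi975 (limma adjusted p = 0.798).

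Of the core glycolytic enzymes and lactate carriers, 13 of 17 were lower and 2 higher in PC3 with MYCi975, beside 30.1% and 29.0% of all genes. In P493-6 with MYCi975 8 of 16 were higher and the other 8 not called, beside 10.6% of all genes higher. In P493-6 with tetracycline 14 of 16 were lower and 1 higher, beside 41.9% and 36.2% of all genes. LDHA, which makes lactate from pyruvate, changed by -1.01 in PC3 with MYCi975 (limma adjusted p = 3.42e-56), by -0.02 in P493-6 with MYCi975 (limma adjusted p = 0.79) and by -2.41 in P493-6 with tetracycline (limma adjusted p = 3.29e-38). In PC3 PKM changed by -0.60, PGAM1 by -0.57 and GPI by -0.56. In P493-6 with MYCi975 ALDOC changed by 0.82, the lactate carrier SLC16A3 by 0.30, GPI by 0.18 and PFKL by 0.16. With tetracycline the lactate carrier SLC16A1 changed by -2.86, PFKM by -2.32 and GPI by -2.17.

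Among 10 listed regulators of glucose and oxygen response, MYC itself among them, 5 were higher and 3 lower in PC3 with MYCi975, beside 29.0% and 30.1% of all genes. In P493-6 4 were higher and 1 lower with MYCi975, beside 10.6% and 18.0% of all genes, and 4 were higher and 5 lower with tetracycline, beside 36.2% and 41.9%. MYC counts as higher with MYCi975 in both lines (0.30 in PC3, 0.11 in P493-6) and as lower with tetracycline (-4.98). DDIT4, an inhibitor of mTORC1 induced by stress, rose by 3.29 in PC3 with MYCi975 (limma adjusted p = 1.33e-51) and by 1.25 in P493-6 with MYCi975 (limma adjusted p = 4e-11), and by 0.98 with tetracycline (limma adjusted p = 1.43e-11). TXNIP, an arrestin known to restrain glucose transporters, changed by -0.43 in PC3 with MYCi975, -0.32 in P493-6 with MYCi975 and 2.79 with tetracycline (limma adjusted p = 3.59e-34). EGLN1, an oxygen sensor, changed with MYCi975 by -0.52 in PC3 and by 0.68 in P493-6. HIF1A changed by 0.38 in PC3 with MYCi975, by -0.02 in P493-6 with MYCi975 (limma adjusted p = 0.765) and by 0.49 in P493-6 with tetracycline. BHLHE40, a repressor known as a target of hypoxia-inducible factors, changed by 0.57 with MYCi975 and 2.09 with tetracycline in P493-6, and the oxygen sensor EGLN3 by -1.11 with tetracycline. Every change given for these lists, other than those of LDHA, HIF1A and PDP1 in P493-6 with MYCi975, passed the same threshold (limma, adjusted p below 0.05).

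**Figure D5:**
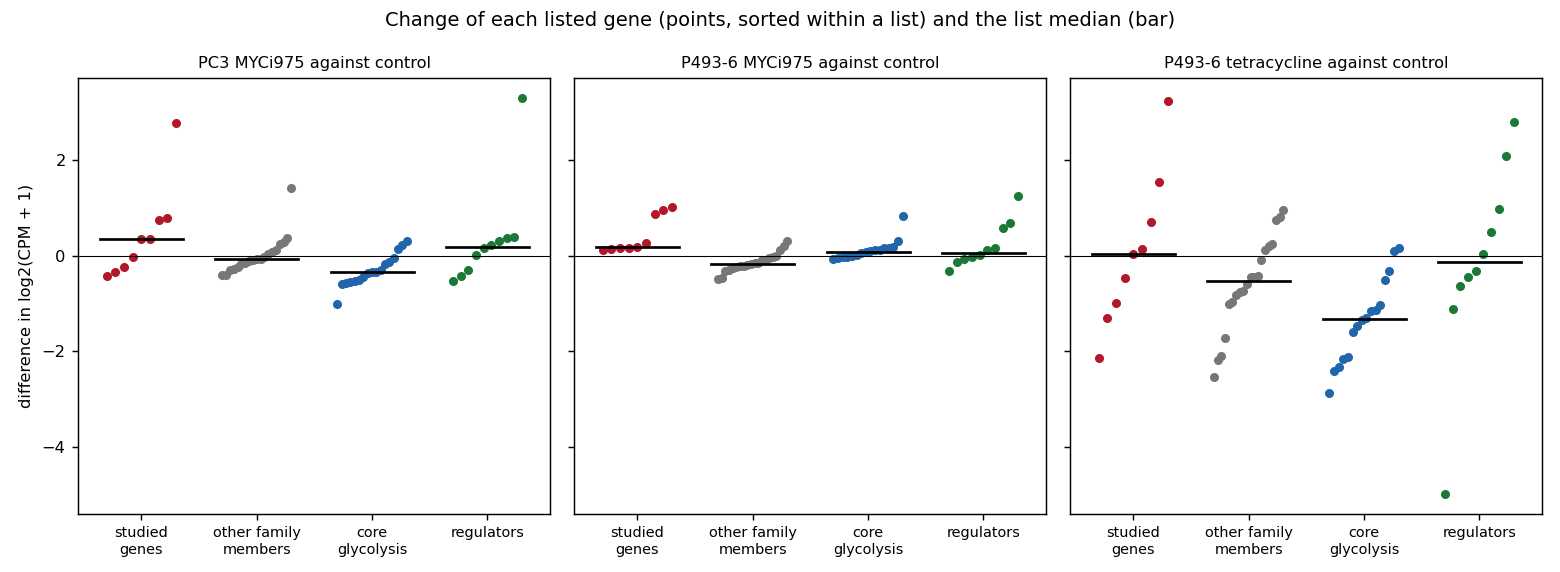
Difference in log2(CPM + 1) of each listed gene (points) with the list median (bar), for the studied genes, other members of their families, core glycolysis, and regulators of glucose and oxygen response, in each comparison with controls. The core glycolysis median lies at -0.35 in PC3 with MYCi975, 0.08 in P493-6 with MYCi975 and -1.33 in P493-6 with tetracycline.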

How the data were processed

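Per the labels' protocols, libraries were made with TruSeq RNA Access, a strand-specific exon capture kit, from 50 ng of total RNA. Per the submitters' processing notes, reads were handled with STAR, HTSeq and edgeR on hg38, and the sources used here give no versions or settings. The authors deposited CPM, scaled to each library's counted reads only, and whole reads were recovered from them within 0.001 reads. A gene is listed only where 2 or more of a table's 6 libraries exceed a CPM of 1. Log2 fold changes, p-values, a likelihood ratio score and marks of the authors stand beside them, per the file headers; the score was not used.

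Groups follow the labelled line and treatment. limma 3.58.1 in R 4.3.3 (trend, robust) tested log2(CPM + 1) over all genes of each table, two-sided, at a Benjamini-Hochberg adjusted p below 0.05. The direct contrast used the 9 P493-6 libraries, whose control columns are identical in both tables, and the difference between lines used 12 libraries. Ranges and fold changes of low genes are limited by depth, since 1 CPM was 8.16 to 15.9 reads. Alternatives were other pseudocounts (0.1 and 5), a mean CPM of at least 5, TMM factors, edgeR 4.0.16 and DESeq2 1.42.0 on the recovered reads, a replicate block and leaving out each library. The scripts were tested on simulated data. Coding lengths are the longest coding sequence of a gene in GENCODE 29.

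The genes and lists were chosen with earlier results of these data known. Besides the 10 genes, the text names, per list, the 4 called genes with the largest change in each comparison with controls, and the 2 genes of nearest pattern for each gene in all tables.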

Additional observations from a re-analysis of the deposited data

Results flagged for a closer look

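For 6 of the 8 genes listed for both lines the change with MYCi975 differed between PC3 and P493-6. The test was of the difference itself (limma, interaction of line and treatment, adjusted p below 0.05), and 36.3% of all 11240 genes passed it. The PC3 change minus the P493-6 change was 0.66 for HK1, 0.60 for PFKFB2, -0.40 for SLC2A1, -0.56 for PDK3, -1.05 for PFKFB4 and -1.22 for PDK1 on the log2 scale. PC3 received 8 µM and P493-6 received 6 µM, so that line and dose cannot be told apart.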

How the results depend on the processing

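Each gene's value was recomputed under 7 other settings and with each library left out, except that PFKFB2 in P493-6 with MYCi975 has no value under a mean CPM of at least 5. Of 512 such values for differences that passed, 508 kept their direction and side of the threshold, and 4 kept the direction but no longer passed. These are SLC2A1 in P493-6 with MYCi975 (3 libraries) and HK1 with tetracycline (1 library), given above. Of 134 values for differences that did not pass, 123 stayed so, 8 passed and 3 changed sign. Those that passed belong to HK1 and HK2 and are given above. The sign changes were PFKFB4 in PC3, at 0.0405 without PC3 control library 2 and 0.00645 without PC3 MYCi975 library 3 (range over libraries left out -0.0690 to 0.0405, -0.03 with all), and PDK3 with tetracycline, at -0.00708 without control library 3 (range -0.00708 to 0.0774, 0.03 with all). DESeq2 called 1177 of all genes lower in P493-6 with MYCi975, against 2338 by limma on CPM without TMM factors. Leaving out a library gave 1104 to 1270 higher and 1872 to 2124 lower genes in that comparison. Among the values that did not pass, leaving out a library gave 0.0374 to 0.241 for PDK3 and 0.0773 to 0.197 for PFKFB2 in P493-6 with MYCi975, 0.0117 to 0.215 for PDK3 with MYCi975 against tetracycline, and 0.0256 to 0.127 for the difference between the lines of PFKFB3. With the replicate block, HK2 in P493-6 with MYCi975 kept its difference of 0.19 at a limma adjusted p of 0.00745, and no call of these genes changed. Same-numbered libraries did not deviate together (correlations of -0.112 to 0.056 over 9 pairs), so no pairing by number was seen. A pairing with a small effect could be missed this way, since the deviations also hold counting noise. Pseudocounts moved the differences of low genes, HKDC1, SLC2A3, PFKFB2 and PFKFB4 among them, without ending a call. With a pseudocount of 5 CPM, PFKFB4 in P493-6 differed by 1.85 for MYCi975 against tetracycline and by -0.97 for tetracycline against controls. Depth limits PFKFB2 in P493-6, with as few as 28 reads in a library, and HKDC1 in PC3 controls. The causes of these shifts were not tested.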
